A study of Mus musculus with 11 samples.

Results

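The genes described here are 33 genes of meningeal and perivascular fibroblasts, the connective tissue cells that line the brain surface and sheathe its larger vessels. They were taken by symbol from a named list, and all 33 were found, each as 1 row, among the 30681 genes of a count table from mouse hippocampus. The list was drawn up with the difference between the genotypes already known, so the genotype contrast of its members is given below as a description and not as a test. The table holds 11 libraries of polyadenylated RNA, each from 1 hippocampus of a mouse aged 6 months. There were 6 libraries from mice labelled as a conditional Dclk3 knockout (cKO) and 5 from mice labelled WT (wild type). Dclk3 encodes a doublecortin-like kinase, and a conditional knockout removes a gene only in cells that express a recombinase. The recombinase line, the deleted part of the gene, the strain and the sex are not stated in the sources used here. Neither do the labels say whether each library came from a different animal, so the errors below measure the spread between these samples, which may be partly technical.

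The meninges hold several layers of fibroblasts, and sleeves of the same lineage follow arteries and veins into the tissue as perivascular fibroblasts. They make fibrillar collagens and small proteoglycans, and those of the arachnoid and pia also carry transporters that move organic anions, amino acids and neurotransmitters between blood, cerebrospinal fluid and brain. During development they supply retinoic acid, bone morphogenetic proteins and insulin-like growth factor to the underlying cortex and hippocampus. In bulk hippocampus such cells are a minor population, found in the pia and around the vessels that stay on the dissected piece. A lower value in bulk RNA cannot tell fewer such cells from less RNA in each of them.

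Library totals ran from 24001828 to 35674490 counts, and levels are given as CPM, the usual unit of counts scaled to library size, with totals scaled by the trimmed mean of M values. Dclk3 had 15.4 to 25.7 CPM among cKO-labelled libraries and 19.6 to 28.1 CPM in WT, with a log2 fold change of -0.15 ± 0.12 (SE; edgeR, adjusted p = 0.727 over all tested genes). Dclk3 has a single value per library, with no view of the deleted part, and is therefore a weak check here, and groups are named by label throughout. The sexes were unequal: WT replicates 1, 3 and 4 had 490 to 721 CPM of Xist, the RNA of the inactive X chromosome, and at most 3.54 CPM of 4 Y-linked genes together. The remaining 8 libraries, all 6 labelled cKO and WT replicates 2 and 5, had at most 11 CPM of Xist and carried the Y-linked transcripts, and are called male. Values from these 8 libraries are therefore set beside the main ones.

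All 8 defining markers of meningeal fibroblasts were found in every library. Dcn, which encodes the collagen-binding proteoglycan decorin, ran from 34.9 to 122 CPM, and Lum, for the related proteoglycan lumican, from 3.57 to 6.53 CPM. The lowest raw count of any of these markers in any library was 65, for Slc13a4. Pdgfra, at 51.0 to 68.9 CPM, also marks oligodendrocyte precursor cells and is therefore no measure of fibroblasts alone.

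Per kilobase of exon, the members spanned a wide range of levels over the 11 libraries. Ptgds stood highest with 186 CPM per kilobase, followed by Igfbp2 with 15.5, Mgp with 9.35, Igf2 with 7.67 and Col6a1 with 6.17 CPM per kilobase. Most of the transporters and matrix genes lay between 0.631 CPM per kilobase (Slc22a6) and 5.17 (Islr). At the low end were Foxd1 with 0.190, Foxc2 with 0.144 and Slc22a2 with 0.113 CPM per kilobase. Ptgds, prostaglandin D synthase, made up 53.0% of the summed CPM of the members, so a sum over them is mostly a measure of Ptgds. Igfbp2, Ptgds, Thbd, Mgp, Cyp1b1 and Tbx18 are also made by other brain cells (glia, endothelium or mural cells).

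Across the 32 members that passed the low-count filter, 28 had a lower fitted value in the cKO-labelled libraries and 4 a higher one, where 50% of all 16587 tested genes were lower. Slc22a2, with 4 to 17 counts per library, was the member not tested. The median log2 fold change (labelled cKO minus WT) was -0.24 over the members and 0 over all tested genes. Of the 32, 10 were lower by at least 0.4 on the log2 scale, a size that 2.62% of all tested genes reached. No member passed the test over all genes, where edgeR called 0 of 16587 genes (0%) at an adjusted p under 0.05. At an unadjusted p under 0.05, 12 members were lower and 0 higher, where 5.35% of all tested genes were lower at that level and 9.19% lower or higher. DESeq2 called 62 of the 14003 genes it adjusted (0.443%), among them Aldh1a2, Igf2, Ptgds, Slc13a4 and Slc6a13, all lower. Since the members were listed with this contrast known, these counts describe the list and support nothing further.

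**Figure D1:**
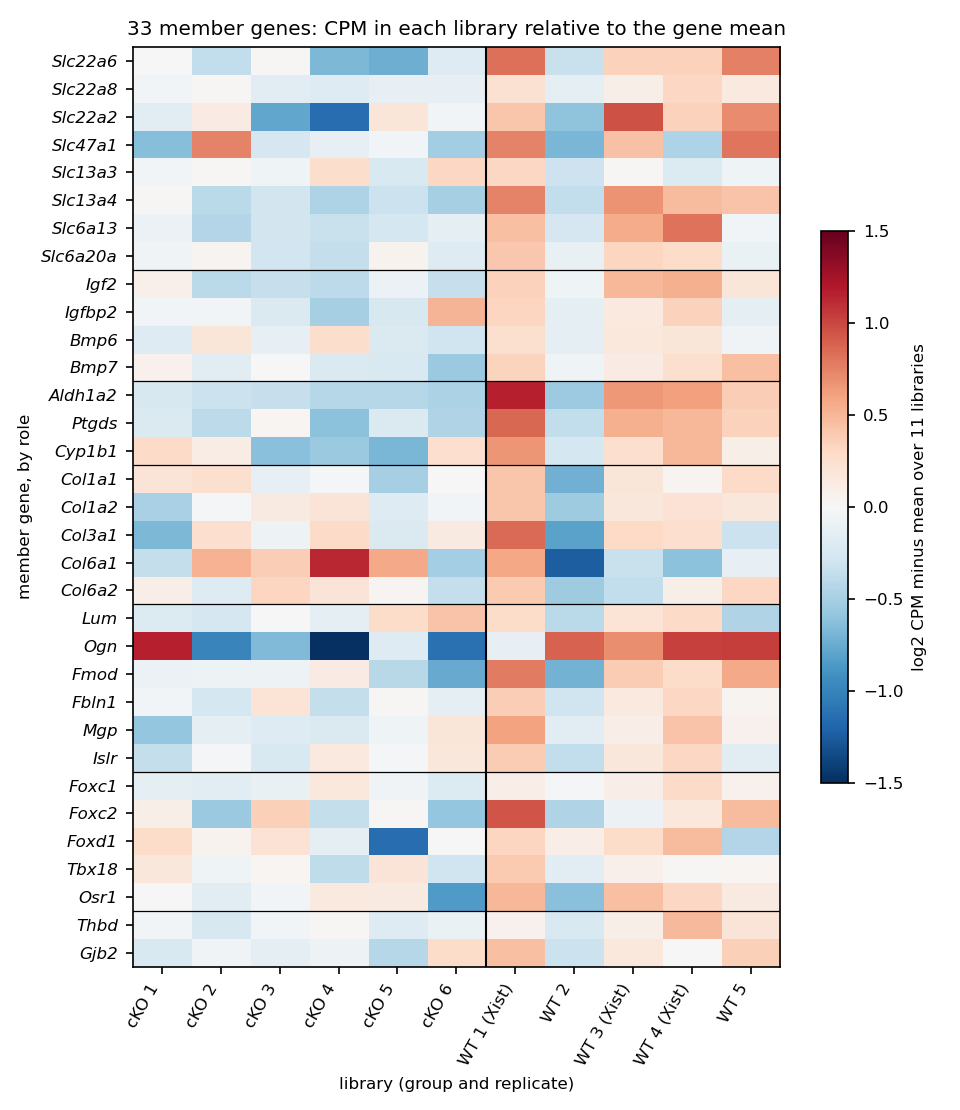
Level of each of the 33 members in each of the 11 libraries, as log2 CPM minus the mean of that gene over the libraries (red above, blue below its own mean), with members grouped by role on the vertical axis and libraries by group and replicate on the horizontal axis. WT replicate 2 is blue in nearly all members and WT replicates 1, 3 and 4, marked for Xist, are mostly red.

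The clearest structure among the members was between libraries of the same group. In WT, 28 of the 32 tested members had their lowest value in replicate 2, where that library was the lowest WT library for 21.9% of all tested genes. WT replicate 1 held the highest WT value for 21 members. The average of the members' log2 CPM, after subtracting each gene's own mean, was 0.47, -0.32, 0.23, 0.27 and 0.16 in WT replicates 1 to 5, and ran from -0.19 to -0.07 in the cKO-labelled libraries. WT replicate 2 therefore lay below all 6 cKO-labelled libraries and the other 4 WT libraries above all 6. For no member did the groups separate completely, where 0.512% of tested genes had every cKO-labelled library below every WT library. In 11 of the 33 members WT replicate 2 alone stood in the way, with the other 4 WT libraries above every cKO-labelled library, a pattern found in 0.657% of all tested genes. Those 11 were Slc22a6, Slc22a8, Slc22a2, Slc13a4, Slc6a13, Igf2, Bmp7, Aldh1a2, Ptgds, Fmod and Thbd.

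The transporters were the largest role group, and 6 of its 7 tested members had lower values in the cKO-labelled libraries. Slc13a4, a sodium-coupled sulfate transporter of the meninges and placenta, had 2.43, 2.66 and 3.47 CPM as its lowest, median and highest value in the cKO-labelled libraries. In WT replicates 1 to 5 it had 5.73, 2.65, 5.46, 4.74 and 4.61 CPM. WT replicate 2 lay among the cKO-labelled libraries and the other 4 WT libraries lay above all of them. Its log2 fold change was -0.76 ± 0.16 (SE), and -0.40 in the male libraries.

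Slc6a13, the GABA and taurine transporter GAT2 of the leptomeninges, had 5.57, 6.27 and 7.10 CPM (lowest, median, highest) in the cKO-labelled libraries. Its WT values were 10.3, 6.36, 11.1, 13.3 and 7.33 CPM in replicates 1 to 5. The 3 female WT libraries were the highest, and both male WT libraries were lower, replicate 2 inside the range of the cKO-labelled libraries and replicate 5 just above it. The log2 fold change of -0.62 ± 0.16 (SE) shrank to -0.11 in the male libraries.

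Slc22a6 encodes OAT1, an organic anion exchanger. It ran from 1.42 over a median of 1.95 to 2.39 CPM in the cKO-labelled libraries, and had 4.21, 1.87, 2.99, 3.01 and 3.99 CPM in WT replicates 1 to 5. Here the male WT replicate 5 was nearly as high as the highest female library, and the log2 fold change was -0.73 ± 0.20 (SE) over 11 libraries and -0.60 over the 8 male ones. The neighbouring gene Slc22a8, for the related exchanger OAT3, lies beside it on the same strand of chromosome 19, with 6203 bases and no other gene of the table between them. Slc22a8 had a smaller difference than Slc22a6, -0.24 ± 0.08 and -0.11 in the male libraries (log2, SE; 11.8 ± 0.653 CPM among cKO-labelled libraries and 13.9 ± 1.64 CPM in WT, SD, n = 6 and 5). Slc22a2, the organic cation transporter OCT2, had 0.220 ± 0.0719 CPM among cKO-labelled libraries and 0.352 ± 0.123 CPM in WT (SD, n = 6 and 5).

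Slc6a20a, an imino acid and proline transporter, had a log2 fold change of -0.30 ± 0.11 (SE) that was -0.02 in the male libraries, and 14.3% of its exon bases are shared with genes on the opposite strand. Slc47a1, the proton-coupled exporter MATE1, was at -0.34 ± 0.30 (SE) with 15 to 49 counts per library. Slc13a3, a sodium-coupled dicarboxylate carrier that astrocytes and kidney also express, had the highest CPM of the transporters and no lower value, with 12.8, 14.8 and 18.6 CPM (lowest, median, highest) in the cKO-labelled libraries. WT replicates 1 to 5 had 18.6, 12.0, 15.2, 13.045 and 14.3 CPM of Slc13a3, and the groups overlapped over almost their whole range (0.09 ± 0.11, log2 ± SE, and 0.24 in the male libraries).

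Of the enzymes, all 3 had lower values in the cKO-labelled libraries by at least 0.4 on the log2 scale. Aldh1a2, which makes retinoic acid from retinal and is the main such enzyme of the meninges, showed a narrow range in the cKO-labelled libraries, with 3.28, 3.50 and 3.89 CPM (lowest, median, highest). In WT replicates 1 to 5 it had 10.3, 3.13, 7.19, 7.03 and 5.90 CPM. Replicate 2 was thus below every cKO-labelled library while each of the other 4 WT libraries was above all of them. The log2 fold change was -0.93 ± 0.21 (SE, 95% interval -1.39 to -0.46), was -0.35 in the male libraries and -1.10 without WT replicate 2. The coefficient of variation of Aldh1a2 was 6.28% in the cKO-labelled libraries and 38.6% in WT.

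Ptgds makes prostaglandin D2 and is secreted as a lipid carrier into the cerebrospinal fluid by leptomeninges, choroid plexus and oligodendrocytes. It had 189.8, 236 and 298 CPM (lowest, median, highest) in the cKO-labelled libraries and 529, 225, 423, 411 and 369.7 CPM in WT replicates 1 to 5. Again replicate 2 lay inside the range of the cKO-labelled libraries and the other 4 WT libraries above it. The log2 fold change was -0.72 ± 0.20 (SE) and -0.32 in the male libraries. Of 8 oligodendrocyte markers, the summed level overlapped, with 4554 to 6298 CPM among cKO-labelled libraries and 4855 to 5831 CPM in WT. None of these 8 passed the test, also at an unadjusted p under 0.05, and their median log2 fold change was 0.02.

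Cyp1b1, a cytochrome P450 that oxidises steroids and retinoids and is also made by pericytes, had 2.56, 3.62 and 5.02 CPM (lowest, median, highest) in the cKO-labelled libraries. Its WT values were 6.54, 3.44, 4.90, 5.81 and 4.38 CPM in replicates 1 to 5. The groups overlapped for 3 WT libraries, and the log2 fold change of -0.43 ± 0.21 (SE) was -0.06 in the male libraries.

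Promoters of 25 of the 33 members were found in RefSeq sequence of build GRCm38.p6, the assembly named mm10, as 33 start sites. The 250 bases before the start are shown for Aldh1a2, Slc13a4 and Ptgds, since Slc13a4 and Ptgds were the members closest to Aldh1a2 in their within-group deviations (Pearson correlations of 0.92 and 0.89 over 11 libraries). Capitals mark matches on either strand to 6 short motifs: a forkhead motif, a T-box half-site, a nuclear receptor half-site, a TATA box, a CCAAT box and a GC box, each spelled out further on. All 3 are written 5′ to 3′ towards the gene.
Aldh1a2, chr9:71215539-71215788, plus strand: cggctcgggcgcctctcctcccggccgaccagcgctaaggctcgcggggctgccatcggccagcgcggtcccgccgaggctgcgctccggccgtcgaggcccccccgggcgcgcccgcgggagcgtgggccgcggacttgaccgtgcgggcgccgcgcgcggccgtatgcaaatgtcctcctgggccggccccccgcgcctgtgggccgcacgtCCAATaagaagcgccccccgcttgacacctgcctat
Slc13a4, chr6:35308127-35308376, minus strand: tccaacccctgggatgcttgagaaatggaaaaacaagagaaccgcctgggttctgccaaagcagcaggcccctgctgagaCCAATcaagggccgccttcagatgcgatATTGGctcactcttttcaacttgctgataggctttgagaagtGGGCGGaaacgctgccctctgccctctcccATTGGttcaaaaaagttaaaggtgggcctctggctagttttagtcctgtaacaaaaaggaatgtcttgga
Ptgds, chr2:25469750-25469999, minus strand: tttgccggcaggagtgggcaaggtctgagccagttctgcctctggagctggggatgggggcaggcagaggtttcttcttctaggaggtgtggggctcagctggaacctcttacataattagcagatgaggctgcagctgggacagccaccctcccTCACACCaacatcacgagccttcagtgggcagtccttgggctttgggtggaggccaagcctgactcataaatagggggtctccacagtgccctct
The Aldh1a2 promoter, with 77.6% G and C, held 1 CCAAT box, 36 to 32 bases before the start. That of Slc13a4, with 50.4% G and C, held 3 CCAAT boxes and 1 GC box. In Ptgds the only match was a T-box half-site on the reverse strand, 95 to 89 bases before the start. Over the 33 member start sites the CCAAT box, with the letters of its name, occurred in 10, and in 33.8% of the 32851 promoters of all genes. The GC box, spelled GGGCGG, occurred in 16 member start sites, of 14 genes, and in 32.7% of all promoters. The median share of G and C was 58.0% over the member start sites and 52.4% over all promoters, and its part in this count was not tested. The nuclear receptor half-site, spelled AGGTCA, occurred in 3, those of Gjb2, Igf2 and Slc6a13, and in 14.0% of all promoters. The TATA box, spelled TATAAA, occurred in 2, those of Col3a1 and Ogn, and in 12.4% of all promoters. The forkhead motif, spelled TGTTTAC, occurred in 1, that of Col6a1, and in 3.17% of all promoters. The T-box half-site, spelled GGTGTGA, occurred in Ptgds alone and in 3.33% of all promoters. Overlapping matches were allowed. These are letter matches in a short window and say nothing on binding.

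All 4 growth factors and binding proteins had lower fitted values. Igf2, insulin-like growth factor 2, which the leptomeninges and choroid plexus secrete, had 32.2, 33.7 and 45.0 CPM (lowest, median, highest) in the cKO-labelled libraries. WT replicates 1 to 5 had 54.3, 40.9, 60.5, 61.6 and 48.4 CPM. Only WT replicate 2 overlapped, since replicate 1 labelled cKO, at 45.0 CPM, was above it. Its log2 fold change was -0.56 ± 0.12 (SE, 95% interval -0.81 to -0.30) and -0.30 in the male libraries. In the annotation 64.5% of the exon bases of Igf2 are shared with other genes, nearly all with Gm49394 on the same strand. Gm49394 has no row in the count table. How reads in the shared bases were counted is not given, so part of the Igf2 count is uncertain.

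Bmp7, a bone morphogenetic protein that signals through SMAD proteins, was at -0.39 ± 0.12 (log2 ± SE), and at -0.38 in the male libraries. It had 5.45 ± 0.796 CPM among cKO-labelled libraries and 7.16 ± 0.964 CPM in WT (SD, n = 6 and 5). Bmp6, a ligand of the same family that also regulates hepcidin, was at -0.13 ± 0.12, and Igfbp2, which binds insulin-like growth factors, at -0.18 ± 0.17 (log2 ± SE). Both turned in sign in the male libraries, to 0.06 and 0.09.

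The collagens did not share the pattern of the transporters and enzymes in size. Col1a1 and Col1a2, the chains of type I collagen, were at -0.10 ± 0.17 and -0.18 ± 0.15, and Col3a1, type III collagen, at -0.18 ± 0.25 (log2 ± SE). All 3 turned in sign in the male libraries, to 0.12, 0.09 and 0.53. For each of them WT replicate 2 had the lowest value of all 11 libraries. Col6a2, a chain of the beaded-filament type VI collagen, was at 0.01 ± 0.17 and at 0.09 in the male libraries. Its neighbour Col6a1, 85161 bases away on the same strand of chromosome 10, had the highest fold change of the members, 0.62 ± 0.38 (log2 ± SE).

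Col6a1 had 17.1, 33.4 and 53.5 CPM (lowest, median, highest) in the cKO-labelled libraries and 36.5, 10.4, 19.4, 16.0 and 22.4 CPM in WT replicates 1 to 5. Both groups varied by a factor of at least 3, and its coefficient of variation was 41.3% in the cKO-labelled libraries and 46.7% in WT. The 95% interval ran from -0.23 to 1.47. The difference was 0.97 in the male libraries and 0.91 without WT replicate 1, the highest WT library, where Col6a1 alone among the members was higher at an unadjusted p under 0.05 (edgeR).

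Among the other matrix proteins, 5 of 6 had lower values. Ogn, the small proteoglycan osteoglycin, had the lowest fold change of the members and also the largest spread, with 1.25, 2.34 and 9.21 CPM (lowest, median, highest) in the cKO-labelled libraries. Its WT values were 3.77, 7.62, 6.66, 8.40 and 8.43 CPM in replicates 1 to 5. Replicate 1 labelled cKO was the highest of all 11 libraries, while each of the other 5 labelled cKO was under the lowest WT value. The log2 fold change of -1.03 ± 0.48 (SE) was -1.63 without that library and -1.23 in the male libraries. In Ogn WT replicate 1, not replicate 2, was the lowest WT library.

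Fmod, the collagen-binding proteoglycan fibromodulin, had 3.71, 5.93 and 6.81 CPM (lowest, median, highest) in the cKO-labelled libraries and 10.8, 3.84, 8.15, 7.56 and 9.28 CPM in WT replicates 1 to 5. Again WT replicate 2 was the only WT library inside the range of the cKO-labelled libraries (-0.52 ± 0.22, log2 ± SE, and -0.25 in the male libraries). Islr, an immunoglobulin and leucine-rich repeat protein of mesenchymal cells, had 10.7, 13.5 and 15.4 CPM (lowest, median, highest) in the cKO-labelled libraries. Its WT values of 17.8, 10.6, 15.4, 16.9 and 12.2 CPM in replicates 1 to 5 overlapped them (-0.13 ± 0.13, log2 ± SE), and its difference turned in sign in the male libraries, to 0.23. Mgp, an inhibitor of calcification, was at -0.39 ± 0.14, Fbln1, the matrix glycoprotein fibulin 1, at -0.22 ± 0.12, and Lum at 0.01 ± 0.16 (log2 ± SE). In the male libraries these 3 were at -0.11, 0.03 and 0.46.

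All 5 transcription factors were low in level and had lower fitted values, none by more than 0.42 on the log2 scale. Foxc1, a forkhead factor needed for meningeal development, had 2.82, 2.98 and 3.64 CPM (lowest, median, highest) in the cKO-labelled libraries and 3.49, 3.23, 3.49, 3.99 and 3.41 CPM in WT replicates 1 to 5. WT replicate 2 was again the lowest WT library, but the WT values lay close together, with the lowest WT coefficient of variation of the 33 members (8.02%; -0.20 ± 0.11, log2 ± SE, and -0.11 in the male libraries). Foxc2, its close paralogue, had 0.250, 0.334 and 0.479 CPM (lowest, median, highest) in the cKO-labelled libraries and 0.717, 0.272, 0.352, 0.417 and 0.519 CPM in WT replicates 1 to 5. With 7 to 23 counts per library its log2 fold change of -0.42 ± 0.29 (SE) was imprecise, and it was -0.22 in the male libraries and -0.20 without WT replicate 1. Foxd1, another forkhead factor, was at -0.21 ± 0.23, Tbx18, a T-box factor of mural and mesenchymal cells, at -0.13 ± 0.15, and Osr1, a zinc-finger factor of mesenchymal progenitors, at -0.30 ± 0.21 (log2 ± SE). These 3 turned in sign in the male libraries, to 0.11, 0.02 and 0.10. Of the exon bases of Tbx18, 20.6% are shared with D030062O11Rik on the opposite strand.

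The membrane proteins were Thbd and Gjb2. Thbd, the anticoagulant receptor thrombomodulin of endothelium and meninges, had 5.57, 6.29 and 6.66 CPM (lowest, median, highest) in the cKO-labelled libraries and 6.89, 5.65, 7.01, 9.26 and 7.52 CPM in WT replicates 1 to 5. Apart from WT replicate 2 the groups did not overlap (-0.24 ± 0.11, log2 ± SE). Gjb2, the gap junction protein connexin 26 of leptomeningeal cells, was at -0.24 ± 0.13 (log2 ± SE) with overlapping groups. Their male values were -0.09 and -0.14.

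**Figure D2:**
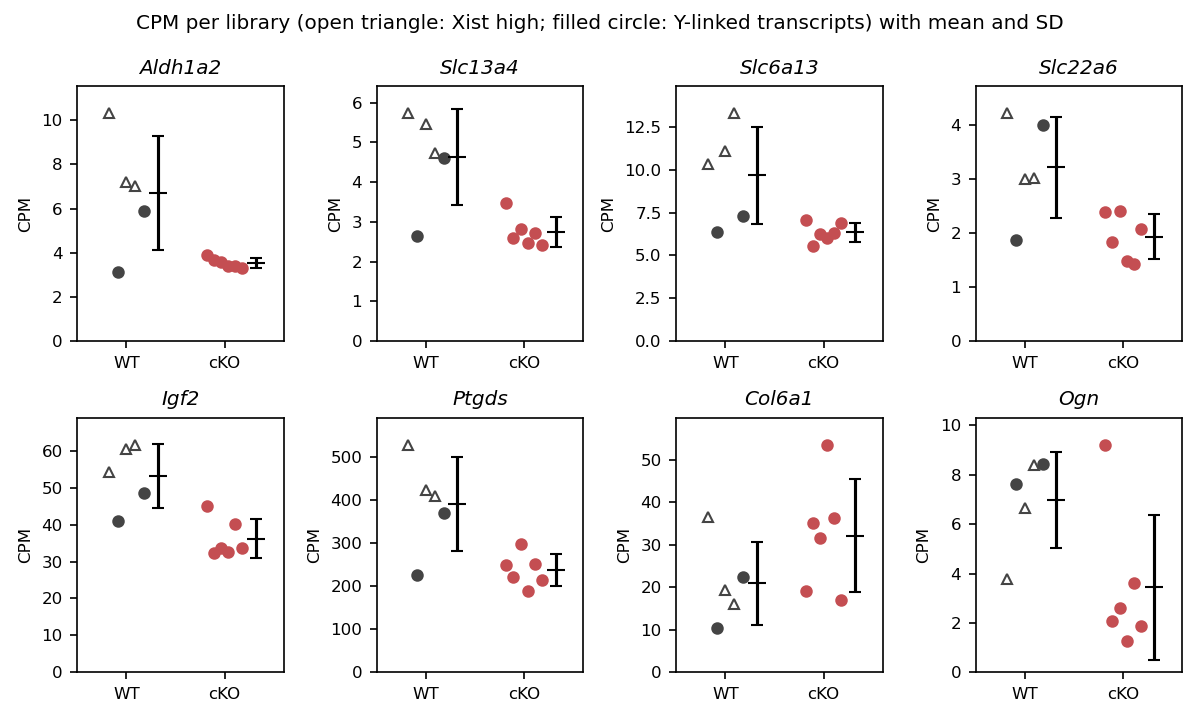
CPM of 8 members in each library on a linear axis from 0, with WT in grey (open triangles for Xist, filled circles for male libraries) and cKO-labelled libraries in red, and the mean with its SD beside each group. In Slc13a4 and Ptgds the lowest WT point, replicate 2, falls among the cKO-labelled libraries, and in Aldh1a2 it falls just below them. Ogn has 1 high cKO-labelled library and Col6a1 spreads widely in both groups.

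Sex and genotype label were partly confounded, since no cKO-labelled library was female. In 13 members the 3 female WT libraries lay above every cKO-labelled library, as in 2.17% of all tested genes. In 7 members the 3 female WT libraries lay above all 8 male libraries: Slc13a4, Slc6a13, Slc6a20a, Igf2, Aldh1a2, Ptgds and Osr1. That arrangement occurred in 0.838% of all tested genes. Igf2 averaged 58.8 CPM in the 3 female WT libraries, 44.6 CPM in the 2 male ones and 36.2 CPM in the 6 labelled cKO. Slc6a13 averaged 11.6, 6.85 and 6.35 CPM in the same order, so its male WT and labelled cKO means were close. Bmp7 averaged 7.20, 7.11 and 5.45 CPM, so its female and male WT means were close. The male WT mean rests on the lowest and the highest WT value, 5.85 CPM in replicate 2 and 8.37 CPM in replicate 5.

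Restricted to the 8 male libraries, 18 of 32 members had lower values, with a median log2 fold change of -0.08. At an unadjusted p under 0.05, Bmp7, Igf2 and Slc22a6 were lower there and Lum higher (edgeR on the 8 male libraries, where 3.58% of tested genes were lower at that level). A sex term over all 11 libraries rests on the same male contrast, because the female libraries are all WT, and is no second result. It gave 18 lower members and a median of -0.08, with 4.36% of tested genes lower at that level. Since only 2 WT libraries are male, and WT replicate 2 is the lowest for most members, sex and that library cannot be told apart in these values. Leaving out WT replicate 2 moved the median to -0.34, with 30 of 32 members lower, 17 of them at an unadjusted p under 0.05 (5.53% of the genes tested there). Slc22a2, not among the 32, passed the low-count filter in that fit and was also lower at that level. Aldh1a2 and Slc13a4 were past the adjusted threshold in edgeR, the only 2 of 16808 genes called in that fit. WT replicate 2 was singled out for its low member values. Larger differences without it follow from that choice and support nothing further.

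**Figure D3:**
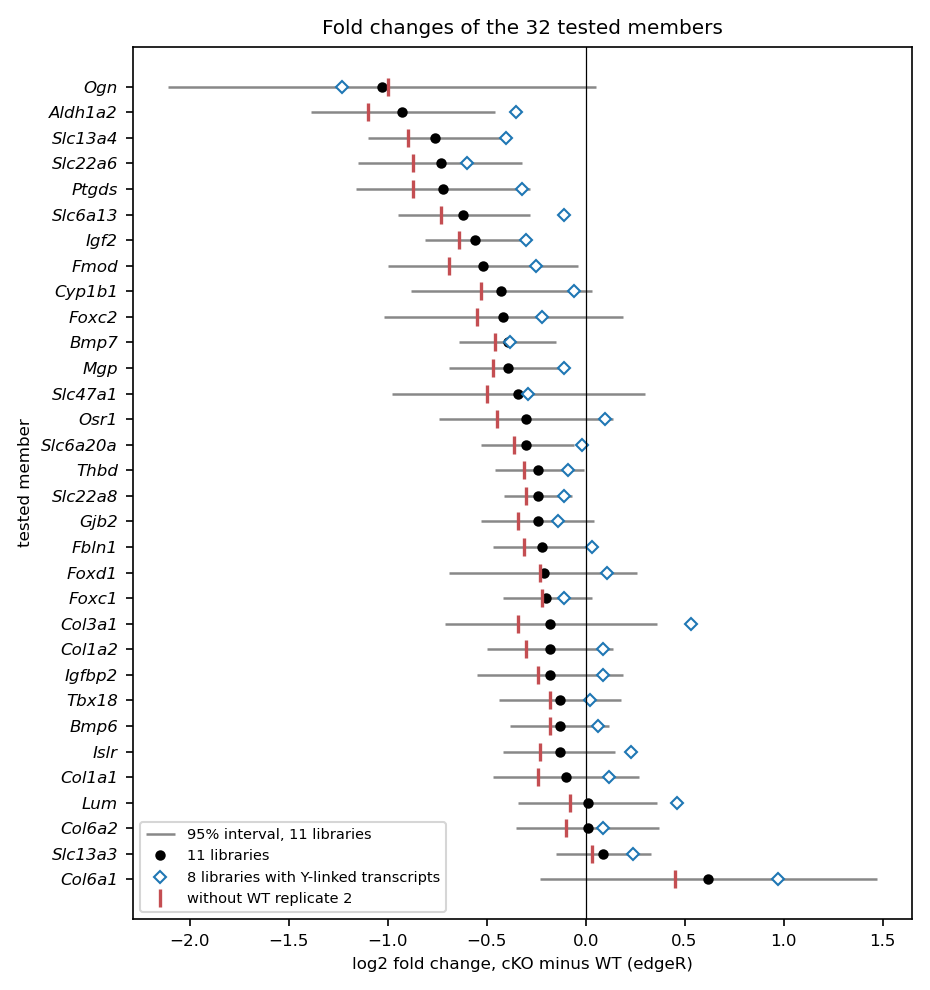
Log2 fold change (labelled cKO minus WT) of the 32 tested members from edgeR on a linear axis, with black points and grey 95% intervals for all 11 libraries, open diamonds for the 8 male libraries and red ticks without WT replicate 2. Diamonds lie to the right of the black points and red ticks to the left, except in Ogn.

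The members were more variable between libraries than most genes. Their median biological coefficient of variation, edgeR's estimate of spread beyond counting noise, was 18.1%, where that of all tested genes was 8.97%. This was not particular to the members. Among the lists given below, the median was 21.9% for choroid plexus, 21.6% for ependyma, 17.6% for border macrophages and 15.8% for other fibroblast genes. It was lower for pericytes and smooth muscle (11.3%), oligodendrocytes (10.4%) and endothelium (9.99%). None of these sets was matched for level. Within groups, 24 of the 32 members varied more in WT than in the cKO-labelled libraries, with median coefficients of variation of 23.1% and 16.5%. Over all tested genes the WT spread was the larger in 37.0%, with medians of 7.97% and 9.48%. The WT group held both sexes and the group labelled cKO only males, and the part of sex in this spread was not tested.

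After each gene was centred within its group, the deviations of the members went together in part. Over 496 pairs of members and 11 libraries the median Pearson correlation was 0.40, and 24 of the 32 members had a correlation above 0.5 with the mean of the others. The closest pairs were Ptgds with Fbln1 (0.94), Col3a1 with Islr (0.92) and Slc13a4 with Aldh1a2 (0.92). Ogn had a negative correlation with the rest (-0.24). Without WT replicate 2 the median pair correlation was 0.11, and within the 6 cKO-labelled libraries it was 0. Ptgds with Fbln1 was at 0.91 without WT replicate 2 and at 0.96 within those 6 libraries. Slc13a4 with Aldh1a2 was at 0.66 and 0.85 in the same settings. These correlations share the libraries, their scaling and their dissection.

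The genes most like the members, by correlation with their mean within-group deviation over 11 libraries, were Palm3 and Slc6a12 (both 0.93), Itga2b (0.90), Coch and Gm37844 (both 0.89). The next were Dnah1, Pomgnt1 and Gm8318 (all 0.88), Trip10, Lhfpl1, Clec18a and Cfap57 (all 0.87), Clec3b (0.86), Eya2 and Pard6g (both 0.85). Slc6a12, the betaine and GABA transporter BGT1, lies 5342 bases from Slc6a13 on the same strand of chromosome 6 and was at -0.91 ± 0.27 (log2 ± SE; 0.429 CPM among cKO-labelled libraries and 0.816 CPM in WT). Coch, a secreted matrix protein, was at -0.65 ± 0.17, whereas Palm3, a paralemmin, was at 0.18 ± 0.12 (log2 ± SE). Without WT replicate 2 the correlations of Slc6a12, Coch and Palm3 were 0.59, 0.66 and 0.75.

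Of 36 other fibroblast genes outside the list 35 were tested, with 22 lower and 13 higher, a median log2 fold change of -0.04, and 0 past the adjusted threshold (edgeR and DESeq2). At an unadjusted p under 0.05 there were 6 lower and 0 higher, where 5.35% of all tested genes were lower. Leaving out replicate 1 labelled cKO gave 10 at that level, counted in either direction. In that fit 7.15% of all tested genes were lower at that level. This share leaves out higher genes, so it is smaller than the one that would match the 10. Those of smallest p were Eln, elastin (-0.34 ± 0.12), Gpc3, a glypican (-0.48 ± 0.18), Fbn1, fibrillin 1 (-0.26 ± 0.10), and Ngfr, the p75 neurotrophin receptor (-0.60 ± 0.24; log2 ± SE). Dcn, the most abundant of them, was at 0.04 ± 0.30 (log2 ± SE). Their summed level was 425 ± 29.1 CPM among cKO-labelled libraries and 429 ± 37.0 CPM in WT (SD, n = 6 and 5). Within groups their mean correlated with that of the members at 0.92 (Pearson) and 0.47 (Spearman) over 11 libraries, and at 0.43 (Pearson) without WT replicates 1 and 2. The summed level of the members was 490 ± 32.8 and 687 ± 161 CPM, and without Ptgds 253 ± 6.18 and 295 ± 51.2 CPM (SD, n = 6 and 5).

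Genes of the pathways that Aldh1a2, Igf2 and the bone morphogenetic proteins serve were counted in the same way. None of 17 tested genes of retinoic acid synthesis, binding and breakdown passed the adjusted threshold (edgeR and DESeq2, here and for the next 2 pathways). At an unadjusted p under 0.05, 5.35% of all tested genes were lower and 3.84% higher. Of the 17, 1 was lower at that level, Crabp2, a retinoic acid binding protein (-0.56 ± 0.24), which is also among the other fibroblast genes. For insulin-like growth factor signalling 0 of 14 passed. Irs1, an adaptor of the receptors, was lower at that level (-0.17 ± 0.07), and Pappa, a protease that frees the growth factors (0.42 ± 0.18), and Igf2bp2, an RNA-binding protein (0.62 ± 0.27; log2 ± SE), were higher. For bone morphogenetic protein signalling 0 of 24 passed, with 3 lower and 2 higher at that level. They were Smad7, an inhibitor of the pathway (-0.20 ± 0.06), the extracellular antagonists Chrd (-0.29 ± 0.11) and Fst (-0.60 ± 0.25), and the receptors Bmpr1b (0.18 ± 0.07) and Bmpr2 (0.13 ± 0.06; log2 ± SE).

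Markers of the cells and tissues that could be dissected along with the meninges were measured beside the members. All 8 markers of border macrophages, which live in the meninges and around vessels, had lower fitted values, with a median log2 fold change of -0.25 and 0 past the adjusted threshold (edgeR and DESeq2). Lyve1, a hyaluronan receptor, was at -0.69 ± 0.20 and F13a1, a coagulation factor, at -0.32 ± 0.13 (log2 ± SE). These were the 2 of 8 lower at an unadjusted p under 0.05, where 5.35% of all tested genes were lower. Their summed level was 8.52 to 11.6 CPM among cKO-labelled libraries and 8.68 to 14.2 CPM in WT, where replicate 2 was again the lowest. Within groups this list's mean correlated with that of the members at 0.78 (Pearson) and 0.58 (Spearman) over 11 libraries, and at 0.15 (Pearson) without WT replicates 1 and 2, the libraries farthest from the median.

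Markers of choroid plexus, which shares Igf2, Ptgds and Slc22a8 with the meninges, had lower fitted values in 10 of 13 tested genes, with a median log2 fold change of -0.09. The 14 genes, of whose sum Enpp2 made up 56.4% and Ttr 29.2%, summed to 235 to 446 CPM among cKO-labelled libraries and 255 to 348 CPM in WT. Ttr, transthyretin, its most specific abundant marker, had 48.8 to 210 CPM among cKO-labelled libraries and 55.5 to 117 CPM in WT. It was highest in replicate 5 labelled cKO, and WT replicate 2 had 83.7 CPM. The list's within-group correlation with the members was -0.06 (Pearson). Prlr, the prolactin receptor, had higher values (0.66 ± 0.15) and Clic6, a chloride channel protein, lower ones (-0.41 ± 0.16; log2 ± SE). For Prlr every cKO-labelled library lay above every WT library, as for 0.404% of all tested genes. At the adjusted threshold edgeR called 0 genes of the list and DESeq2 called 1.

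Endothelial markers gave a median of 0.01, with 0 of 11 under an unadjusted p of 0.05, and sums of 278 to 312 CPM among cKO-labelled libraries and 266 to 328 CPM in WT. Of 12 pericyte and smooth muscle markers 10 had lower values, with a median of -0.12. At an unadjusted p under 0.05, 4 of the 12 were lower, where 5.35% of all tested genes were lower. These 4 included Anpep, a pericyte aminopeptidase (-0.46 ± 0.12), and Myh11, smooth muscle myosin (-0.26 ± 0.10; log2 ± SE), and Rgs5 was higher (0.11 ± 0.05). Their sums overlapped, with 315 to 338 CPM among cKO-labelled libraries and 307 to 356 CPM in WT. Of the 6 ependymal markers 5 were tested, with a median of -0.08 and Ccdc153, a ciliary protein, lower at an unadjusted p under 0.05 (-0.50), and sums of 15.7 to 26.6 and 18.2 to 28.5 CPM. Of the 6 arachnoid barrier markers 5 were tested and all 5 had lower values, with a median of -0.10, none under an unadjusted p of 0.05. Their sums were 45.3 to 52.3 and 45.8 to 55.8 CPM. Abcb1a made up 56.3% of this sum and Abcg2 38.7%, so it is mostly a measure of these genes.

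Thalamic markers, from the tissue under the hippocampus, moved against the members within groups. Their summed level was 45.7 to 57.2 CPM among cKO-labelled libraries and 55.3, 70.8, 58.8, 61.7 and 64.1 CPM in WT replicates 1 to 5. In this sum WT replicate 2, the lowest library for the members, was the highest. WT replicate 1, the highest for the members, was the lowest WT library. Prkcd made up 46.6% of the sum, and single genes differed. Prkcd, Ramp3, Tcf7l2 and Tnnt1 were highest of all libraries in WT replicate 2, whereas Lef1, Synpo2 and Gbx2 peaked elsewhere. Zic1 had its lowest WT value there, 8.71 CPM. WT replicate 1 was the lowest WT library for Prkcd, Ramp3 and Lef1 only. The within-group correlation with the members was -0.91 (Pearson) and -0.76 (Spearman) over 11 libraries, and -0.56 (Pearson) without WT replicates 1 and 2. Between the groups both had lower values in the cKO-labelled libraries, with a median log2 fold change of -0.25 over 7 tested thalamic genes. Zic1, a zinc-finger factor also made by meningeal cells, was at -0.46 ± 0.09 and Ramp3, a receptor partner protein, at -0.59 ± 0.13 (log2 ± SE). With Prkcd (-0.33 ± 0.09) they were the 3 of 7 lower at an unadjusted p under 0.05, where 5.35% of all tested genes were lower. For Zic1 and Ramp3 every cKO-labelled library lay below every WT library, as for 0.512% of all tested genes. Of the other lists above, Lyve1, Smad7 and Anpep showed this separation. At the adjusted threshold edgeR called 0 of the thalamic genes and DESeq2 called 2, where DESeq2 called 0.443% of all genes it adjusted. No marker list summed to 0 in any library, and the part of dissection in the member values was not tested.

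**Figure D4:**
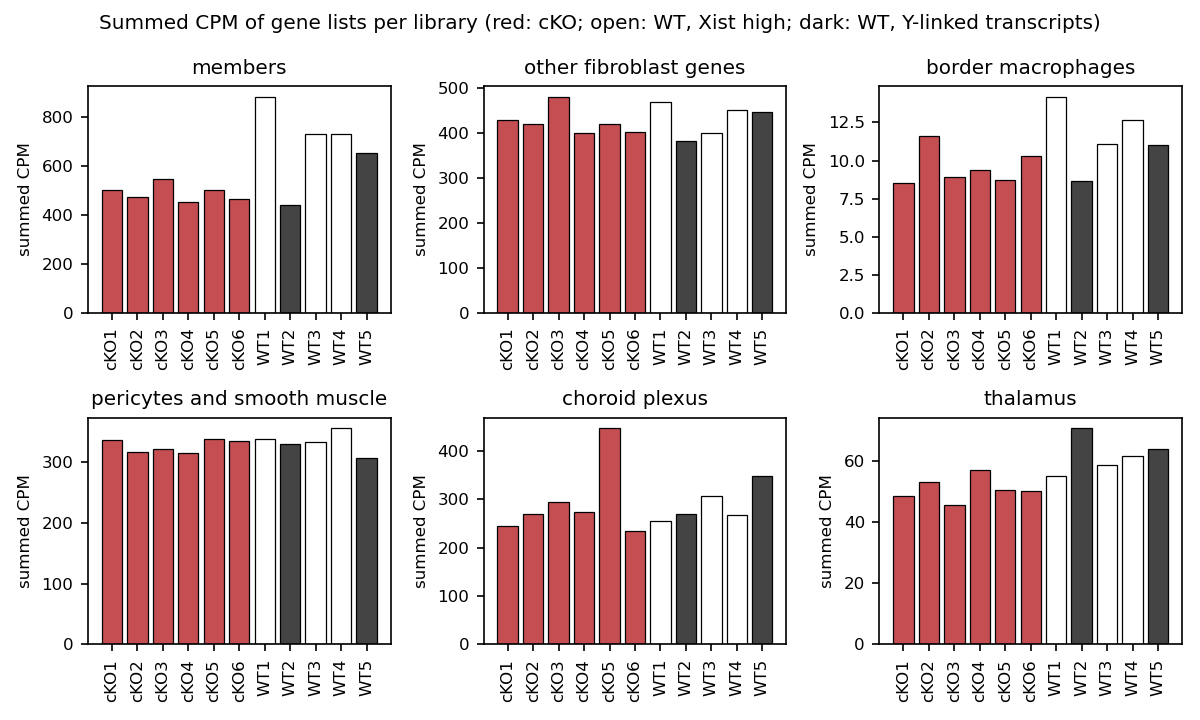
Summed CPM of the members and of 5 marker lists in each library, on linear axes from 0, with cKO-labelled libraries in red, WT libraries with Xist open and male WT libraries dark. The members are lowest and the thalamic genes highest in WT replicate 2, and choroid plexus genes peak in replicate 5 labelled cKO at 446 CPM.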

How the data were processed

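Polyadenylated RNA of 1 hippocampus per library was sequenced with a strand-marking kit, as the labels' protocols state. Demultiplexing software bcl2fastq 2.17.1.14 and the mm10 assembly appear in the submitters' processing notes. Which aligner, counter and annotation were used, and whether counting used strand, is not given in the sources used here. Values are raw counts per Ensembl gene, as the authors deposited them. Of 30681 genes 30566 matched a symbol and a position in GENCODE M21 (mm10), which gave exon lengths. The members and lists were chosen with earlier results of these data known.

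filterByExpr left 16587 genes, scaled by TMM. CPM was computed here. The test was edgeR 4.0.16's 2-sided robust quasi-likelihood F test of the genotype, adjusted by Benjamini-Hochberg at 0.05 (limma 3.58.1, DESeq2 1.42.0, R 4.3.3), tested on simulated data. Log2 CPM used a prior count of 2. Replicates differed by more than counting noise (smallest chi-square per degree of freedom 5.70). The median SE of a log2 fold change was 0.08. A library with over 100 CPM of Xist was read as female.

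Per-library values are given for members with a log2 fold change of at least 0.4 in size and for the member of highest CPM in each role. Of other lists up to 4 genes of smallest p are named, besides the defining markers and the 15 genes most like the members. Further genes were named after their values were seen (Crabp2, Rgs5 and Ttr among them). Alternatives were other scalings, filters, DESeq2, limma-voom, a replicate block, each library left out, a sex term and the male libraries alone.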

Additional observations from a re-analysis of the deposited data

Results flagged for a closer look

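Of 66 series of a member's CPM within 1 group, 4 held a library far from the others, with a gap to its nearest neighbour above Dixon's 95% critical value. Chance gives about 1 in 20. All 4 were high cKO-labelled libraries: Ogn in replicate 1 at 9.21 CPM, Slc13a4 in replicate 1 at 3.47 CPM, Slc47a1 in replicate 2 at 1.38 CPM and Igfbp2 in replicate 6 at 39.9 CPM.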

How the results depend on the processing

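Other scalings, filters and tests gave 26 (a stricter filter, with fewer members tested) to 30 lower members and median log2 fold changes of -0.28 to -0.23. With a sex term the lower members were 18, those under an unadjusted p of 0.05 were 4, and the other fibroblast genes under it 3. In the 8 male libraries these were 18, 4 and 2. Both counts under an unadjusted p of 0.05 take either direction. Of all tested genes 4.36% were lower at that level with a sex term and 3.58% in the male libraries. The cause was not tested.

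Genes called over the whole table numbered 0 with edgeR (1524 at an unadjusted p under 0.05), 1 with library totals alone, 3 with no filter and 62 with DESeq2. Leaving out each library gave 0 to 14 called genes (1 without WT replicate 1, 2 without WT replicate 2, 14 without WT replicate 5). Lower members were 27 to 30, with medians from -0.34 to -0.20. Under an unadjusted p of 0.05 (edgeR), in either direction, were 10 to 17 members and 4 to 10 other fibroblast genes. In these fits 4.18% to 7.15% of all tested genes were lower at that level.

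The replicate block used replicates 1 to 5 of both groups. It called 0 genes, with a median of -0.25. At an unadjusted p under 0.05 (edgeR) 13 members were lower, where 4.8% of all tested genes were lower. The numbers did not pair the libraries, since correlations of same-numbered deviations ran from -0.32 to 0.21 and 2 of 10 libraries correlated best with their own number. Of the members, 10 changed sign in the male libraries (and with a sex term, which rests on the same male contrast), and Col6a2, Lum or Col3a1 under 11 other alternatives. Counts of at most 17 and 23 per library limit Slc22a2 and Foxc2.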
